A study of Homo sapiens with 8 samples.

Results

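The difference between LNCaP and PC3 cells in their response to miR-375 was measured gene by gene. For each gene the log2 fold change of miR-375 over control in PC3 was subtracted from that in LNCaP, and this difference is called the interaction. The genes described are those with a mean of at least 5 CPM in both lines, where CPM is a count scaled to a common library size, taking in each line the higher of the control and the miR-375 mean. They are 9976 of the 60622 genes in the count table, and all 9976 were among the 21066 genes that were tested. A further 1235 genes reached that level in LNCaP only and 1678 in PC3 only, and these are not described. RNA-seq of poly(A) RNA was done on 8 libraries in 4 groups of 2: LNCaP control, LNCaP with miR-375 overexpressed, PC3 control and PC3 with miR-375 overexpressed. The sources used here do not give the means or the duration of the overexpression, nor the treatment of the controls. LNCaP cells were grown with 10% and PC3 cells with 20% fetal bovine serum, and a difference between lines cannot be told apart from one between serum shares. Each line stands for 1 tumour, and a difference between them is a difference between these cultures.

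A microRNA is a short RNA that guides an Argonaute protein to messenger RNAs, chiefly through pairing of its seed, the bases near its 5′ end, with sites in 3′ untranslated regions (UTRs). Paired messengers are translated less and are often degraded, so a direct target tends to fall when the microRNA is added, and genes downstream of a target can move either way. LNCaP is an androgen-responsive line from a lymph node metastasis with a luminal epithelial character, and PC3 is a line from a bone metastasis that lacks androgen receptor signalling. The mature sequence of miR-375, on the minus strand at chr2:219001648-219001669 of GRCh38.p14 in RefSeq, is shown because every site search here starts from its seed, bases 2 to 8, in capitals.
hsa-miR-375-3p: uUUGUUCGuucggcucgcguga

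Levels are in CPM with library sizes scaled by TMM, given for the 2 libraries of a group in turn. Each adjusted p is from the quasi-likelihood test of edgeR, adjusted by Benjamini-Hochberg over the 21066 tested genes, and a gene was called where it was under 0.05. An interaction is called higher where the LNCaP change lies above the PC3 change and lower where it lies below. Whether the 2 libraries of a group are separate cultures is not in the labels, and the p-values then reflect only how much these libraries vary, perhaps for technical reasons. In bulk RNA a smaller share of cells expressing a gene and less RNA of it per cell cannot be told apart.

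Library totals ran from 33973861 to 41890528 counts. MIR375 itself had 0 counts in all 8 libraries, which tests nothing, since mature microRNAs carry no poly(A) tail. Marker genes followed the line labels, and the sums were lower with miR-375 in each marker's own line. The 15 LNCaP markers summed to 8254 and 8176 CPM in the LNCaP controls and 6650 and 6782 with miR-375. In the PC3 libraries they summed to between 1147 and 1153 CPM. The 14 PC3 markers summed to 5979 and 5959 CPM in the PC3 controls and 3698 and 3675 with miR-375. In LNCaP they summed to between 128 and 136 CPM. KLK3, which encodes prostate-specific antigen, had 0 counts in all 4 PC3 libraries against 1796 to 2810 CPM in LNCaP. KDR, a receptor for vascular endothelial growth factor, stood at 173 to 323 CPM in PC3 and at no more than 0.0573 CPM in LNCaP. Summed leukocyte markers were at 1.06 to 4.25 CPM in every library. Summed fibroblast markers were at 173 and 185 CPM in the PC3 controls and 417 and 397 CPM with miR-375, most of it COL1A1, and their part in any result was not tested. Summed endothelial markers, mainly KDR, were at 416 and 414 CPM in the PC3 controls and 248 and 246 CPM with miR-375.

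The response to miR-375 differed between the lines for 4401 of the 9976 genes (44.1%), against 26.5% of all tested genes. The interaction was higher for 1835 (18.4%, against 10.9% of all tested genes) and lower for 2566 (25.7%, against 15.6%). Most differences were modest: 336 genes (3.37%) had a called interaction of at least 2-fold, 112 of them higher and 224 lower, against 6.24% of all tested genes. Of the 9976 genes, 542 had at least 1 group mean under 5 CPM and so could enter through the group in which they were high. Among the other 9434, 44.1% were called, with 1743 higher and 2420 lower, of which 79 and 154 were at least 2-fold.

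Within the lines, 5560 of these genes (55.7%) were called in LNCaP, against 32.6% of all tested genes, and 6372 (63.9%) in PC3, against 43.0%. In LNCaP 20.7% rose and 35.0% fell, against 13.9% and 18.7% of all tested genes, and in PC3 28.6% rose and 35.2% fell, against 22.2% and 20.8%. The PC3 changes were spread more widely, with an SD across genes of 0.49 on the log2 scale against 0.40 in LNCaP. Both lines made a call for 3991 genes, which is 71.8% of the LNCaP calls and 62.6% of the PC3 calls. In 3275 of them the direction was the same, and the interaction was called for 1132 of these, with the larger change in PC3 for 709 and in LNCaP for 423. The remaining 716 were called in opposite directions, 277 up in LNCaP and down in PC3 and 439 down in LNCaP and up in PC3, and the interaction was called for all 716. A call in 1 line alone did not by itself mark a line difference: of 3950 genes called in only 1 line, 37.3% had no called interaction. As a description across 9976 genes, which are not independent, the changes in the lines correlated with Pearson's r of 0.55 and Spearman's rho of 0.50.

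**Figure D1:**
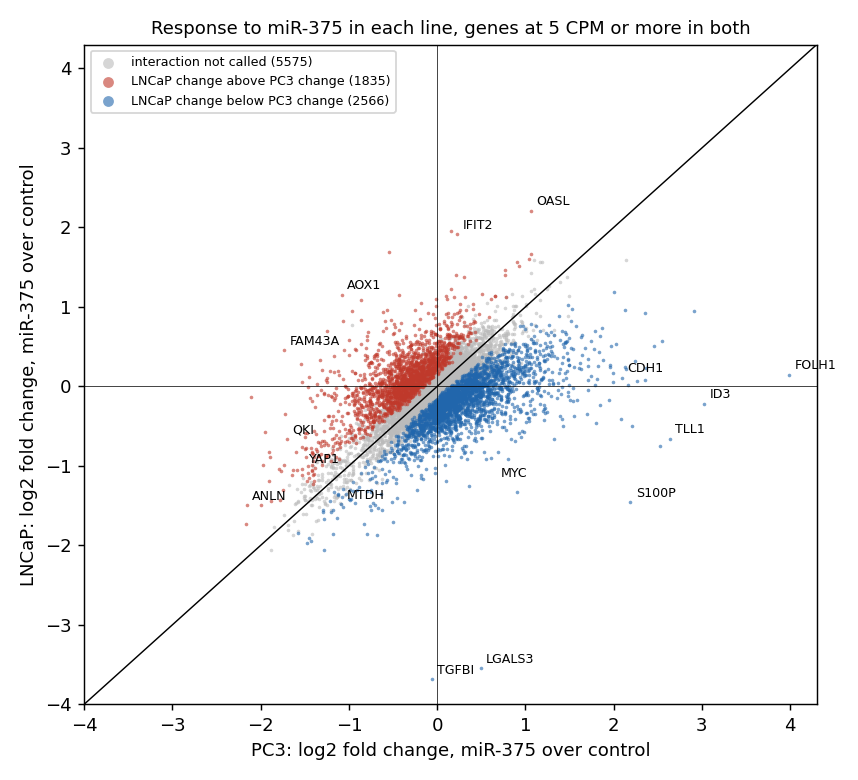
Log2 fold change of miR-375 over control in PC3 (horizontal) and LNCaP (vertical) for the 9976 genes, each point a gene; the diagonal marks equal change. The 1835 red points have a LNCaP change above the PC3 change, the 2566 blue points one below it, and the 5575 grey points no called interaction.

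The balance of higher and lower calls was not settled. Higher genes were 41.7% of the calls with TMM, 50.4% with total counts, 51.7% with DESeq2 size factors, 55.8% with halved counts, 59.6% without a filter on low counts and from 54.7% to 56.6% without 1 of the 4 LNCaP libraries. The median change of the members in LNCaP was −0.06 with TMM and 0.06 with total counts, and the median interaction ran from −0.04 with TMM to 0.06 without the filter. Interactions and within-line changes of about that size have no settled direction. Across 15 refits, 1319 genes were called higher in every refit and 1408 were called lower in every refit, and none of the 4401 calls became a call in the other direction. All 112 genes at least 2-fold higher and 221 of the 224 at least 2-fold lower were among them. Of the 716 genes with opposite directions, 293 kept both calls and the interaction in every refit, 153 of them up in LNCaP and down in PC3, and 24 of the 716 had changed at least 1.5-fold in each line.

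Most reported targets of miR-375 fell in both lines, to different extents. Of 32 targets from earlier literature among the 9976 genes, 27 fell and 1 rose in LNCaP, and 24 fell and 2 rose in PC3, with median changes of −0.54 and −0.41. The interaction was higher for 5 and lower for 13, with a median of −0.08. Without the first LNCaP control these counts were 8 and 6, with the first miR-375 library of LNCaP left out they were 9 and 7 with a median of −0.14, and with the second left out the median was 0.08. In every refit 4 targets were higher and 4 lower, so neither the balance nor the sign of the median was settled.

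MTDH, which encodes a metastasis-associated membrane protein, stood at 327 and 331 CPM in the LNCaP controls and 122 and 113 with miR-375, and at 450 and 449 CPM in the PC3 controls and 215 and 209 with miR-375. It fell in both lines, by 1.49 on the log2 scale in LNCaP and by 1.09 in PC3, and the interaction of −0.40 ± 0.05 (SE) was called (adjusted p = 2.63e-07). SEC23A, a subunit of the COPII coat of secretory vesicles, stood at 187 and 190 CPM and then 82.3 and 69.9 in LNCaP, and at 239 and 232 and then 119 and 119 in PC3. Its interaction was −0.32 ± 0.07 (adjusted p = 0.000434), and without the second LNCaP miR-375 library it was −0.14 (adjusted p = 0.127). YAP1, the co-activator held back by Hippo signalling, went the other way: 121 and 125 CPM fell to 62.1 and 57.9 in LNCaP, and 176 and 167 CPM fell to 60.7 and 58.1 in PC3. The interaction was 0.49 ± 0.07 (adjusted p = 6.79e-07), so its fall was the larger in PC3. QKI, an RNA-binding protein that regulates splicing, had the widest gap of these 4 targets, from 66.7 and 61.8 to 44.0 and 37.3 CPM in LNCaP and from 219 and 232 to 65.3 and 73.4 CPM in PC3. That is a fall by 0.66 in LNCaP and by 1.70 in PC3, with an interaction of 1.04 ± 0.09 (adjusted p = 2.09e-10).

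Other listed targets changed in 1 line or in opposite directions. KLF5, an epithelial transcription factor, went from 12.4 and 13.9 to 5.85 and 5.67 CPM in LNCaP and from 115 and 109 to 120 and 120 CPM in PC3. It fell by 1.19 in LNCaP, was not called in PC3 and had an interaction of −1.29 ± 0.11 (adjusted p = 6.36e-12). IGF1R, the receptor for insulin-like growth factor 1, fell from 11.1 and 10.5 to 8.05 and 8.86 CPM in LNCaP and rose from 33.5 and 35.4 to 49.4 and 50.2 CPM in PC3, with an interaction of −0.89 ± 0.13 (adjusted p = 1.44e-06).

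Stretches of 22 bases that end in a match to the seed are shown for 5 of these genes and for AGO4, whose values come with the microRNA machinery, since they are what miR-375 could pair with in genes whose change differed between the lines. They lie in 3′ UTRs of GENCODE v29 on GRCh38, are written as the messenger reads from 5′ to 3′, and have the match in capitals. An 8mer match is CGAACAAA, a 7mer-m8 match is CGAACAA and a 7mer-A1 match is GAACAAA, so an 8mer holds both of the others. AGO4 has a 7mer-m8 match at chr1:35856034-35856055 (plus strand) and the other 5 genes 7mer-A1 matches, of which YAP1, QKI and IGF1R have more than the one shown. Those are at chr11:102230033-102230054 (plus) for YAP1, chr6:163571608-163571629 (plus) for QKI, chr14:39033045-39033066 (minus) for SEC23A, chr13:73076353-73076374 (plus) for KLF5 and chr15:98959703-98959724 (plus) for IGF1R.
AGO4: ctctacgctcgacctCGAACAA
YAP1: aatacagaaaaagatGAACAAA
QKI: tgcattgaaacaaatGAACAAA
SEC23A: taatgagagcaataaGAACAAA
KLF5: tcacaaatagccattGAACAAA
IGF1R: aatgtttaggagtaaGAACAAA

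Matches to the full seed were rare. Of the 9614 genes with an annotated 3′ UTR, 36 had an 8mer, 54 a 7mer-m8 match and no 8mer, 1351 only a 7mer-A1 match and 8173 none. The median change was −0.17 in LNCaP and −0.08 in PC3 for genes with an 8mer, and −0.21 and −0.01 for those with a 7mer-m8 match. For the 1351 genes with only a 7mer-A1 match it was −0.17 and −0.14, and for genes with no match −0.05 and −0.02. The median interaction was 0.01 with an 8mer, −0.18 with a 7mer-m8 match, −0.06 with a 7mer-A1 match and −0.03 with none. The quartile ranges of the interaction overlapped in all 4 classes. An 8mer or 7mer-m8 match was present in 13 of 1787 genes with a higher interaction (0.727%), in 31 of 2496 with a lower one (1.24%) and in 90 of all 9614 (0.936%). UTR length differed between the classes, with a median of 3258 bases for genes with an 8mer and 920 for genes with no match, and its part in these medians was not tested. A match is a run of letters in the annotation and no measure of pairing.

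**Figure D2:**
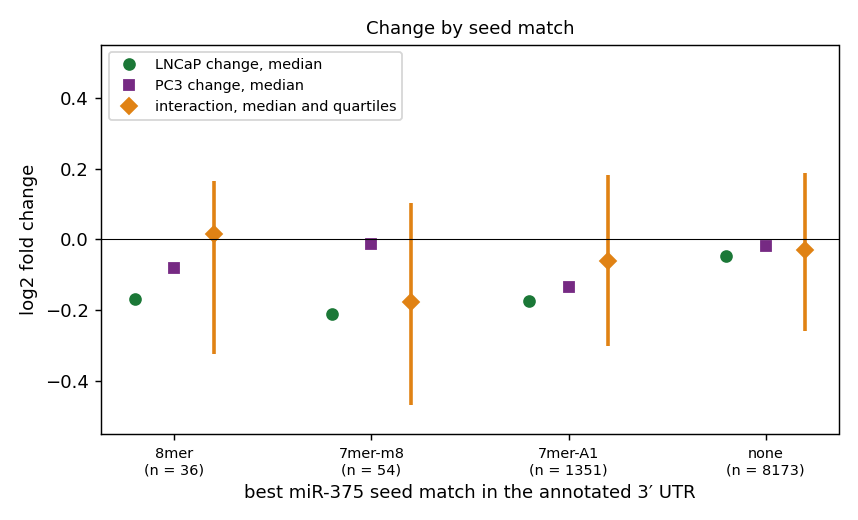
Median log2 fold change in LNCaP (green) and PC3 (purple), and median interaction with its quartiles (orange), for genes grouped by the best match to the miR-375 seed in the annotated 3′ UTR. The 4 classes hold 36, 54, 1351 and 8173 genes, and the quartile ranges of the interaction overlap in all 4.

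FAM43A, a gene of little-known function, went from 62.9 and 64.9 to 87.6 and 87.9 CPM in LNCaP and from 451 and 455 to 138 and 134 CPM in PC3. It rose by 0.46 and fell by 1.74 in the respective lines, and the interaction of 2.19 ± 0.06 (adjusted p = 3.96e-26) had the smallest error of the 12 highest. LAMB3, the β3 chain of the epithelial basement membrane protein laminin 332, stood at 3.17 and 2.78 CPM in the LNCaP controls and 5.74 and 5.73 with miR-375, against 758 and 790 and then 401 and 390 CPM in PC3. All libraries with miR-375 lay above the controls in LNCaP and below them in PC3, and the interaction was 1.92 ± 0.12 (adjusted p = 1.18e-15). AOX1, an aldehyde-oxidising enzyme, went from 3.38 and 2.63 to 7.07 and 6.26 CPM in LNCaP and from 112 and 114 to 51.4 and 55.2 CPM in PC3, an interaction of 2.23 ± 0.15 (adjusted p = 8.79e-15).

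INHBB, the subunit from which activin B is built, followed the same course, from 5.20 and 4.12 to 7.37 and 7.69 CPM in LNCaP and from 449 and 455 to 193 and 186 CPM in PC3, with an interaction of 1.95 ± 0.11 (adjusted p = 1.49e-16). KITLG, the ligand of the receptor KIT, had an interaction of 1.95 ± 0.16 and NR3C2, the mineralocorticoid receptor, one of 1.70 ± 0.20, each with a rise in LNCaP from under 5 CPM. S100A4, a calcium-binding protein of motile cells, stood at 3.44 and 2.29 CPM in the LNCaP controls and 6.20 and 3.93 with miR-375. It had an interaction of 1.89 ± 0.24, but its opposite calls in the 2 lines did not hold in every refit. The remaining genes of the 12 highest interactions were IFIT2 and IFIT3, described below, the reductase gene CYB5R2 (1.82 ± 0.16), which fell in PC3 and was not called in LNCaP, and AC022034.1 (2.23 ± 0.25) and AF165147.1 (1.98 ± 0.21), whose function is not known. Of these 12 genes, 9 reached 5 CPM in LNCaP only with miR-375, all but FAM43A, CYB5R2 and AF165147.1, so a higher level there was a condition of their entry. Other genes that PC3 expressed did not follow 1 course in LNCaP. KDR stayed at or near 0 in all 4 LNCaP libraries. The LNCaP mean of CD44 went from 0.886 CPM in controls to 2.73 with miR-375, and that of AXL from 1.87 to 0.547 CPM. The cause was not tested.

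The lowest interactions were larger in size than the highest, and for most of these genes the rise in PC3 exceeded any fall in LNCaP. ID3, an inhibitor of basic helix-loop-helix transcription factors and a target of BMP signalling, stood at 100 and 88.9 CPM in the LNCaP controls and 81.9 and 80.5 with miR-375, and at 30.3 and 32.1 and then 251 and 257 CPM in PC3. It rose by 3.02 in PC3, and the interaction was −3.24 ± 0.07 (adjusted p = 6.11e-28). TLL1, a protease that activates BMP ligands and processes collagen, fell from 132 and 142 to 86.8 and 86.7 CPM in LNCaP and rose from 9.51 and 9.31 to 60.6 and 56.4 CPM in PC3, with an interaction of −3.29 ± 0.09 (adjusted p = 3.96e-26). The gap between the lines narrowed for TLL1 and reversed for ID3: ID3 was lower in PC3 than in LNCaP among controls and higher with miR-375.

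TMEM45B, a transmembrane protein gene, fell from 60.5 and 64.8 to 37.2 and 37.3 CPM in LNCaP and rose from 25.4 and 24.7 to 145 and 144 CPM in PC3, an interaction of −3.28 ± 0.08 (adjusted p = 8.73e-27). HILPDA, a protein of lipid droplets, had 27.1 and 23.8 and then 19.9 and 18.5 CPM in LNCaP, and 27.9 and 27.4 and then 119 and 115 CPM in PC3. Here the controls of the lines lay close together and only the libraries with miR-375 stood apart, with an interaction of −2.49 ± 0.10 (adjusted p = 1.54e-20). DDR2, a collagen receptor, and TENM1, a teneurin of cell contacts, had interactions of −2.71 ± 0.30 and −2.27 ± 0.23 with rises in PC3 by 2.21 and 1.81. Along with FOLH1 and S100P, described below, they are the 4 of the 12 lowest that reached 5 CPM in PC3 only with miR-375.

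TGFBI and LGALS3 fell in LNCaP and were not called in PC3. TGFBI, an extracellular protein induced by TGF-β, went from 11.1 and 8.02 to 0.813 and 0.664 CPM in LNCaP and stood between 22.5 and 25.6 CPM in all 4 PC3 libraries. The interaction was −3.63 ± 0.24 (adjusted p = 1.45e-14). LGALS3, which encodes galectin-3, stood at 13.3 and 6.44 CPM in the LNCaP controls and 1.03 and 0.637 with miR-375, against 129 and 128 and then 181 and 179 CPM in PC3. The LNCaP controls of LGALS3 lay far apart, the SE of its interaction of −4.04 was 0.63 (adjusted p = 0.0121), and it lost its call when either miR-375 library of LNCaP was left out, at −4.36 (adjusted p = 0.0588) without the first and −3.67 (adjusted p = 0.0668) without the second.

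**Figure D3:**
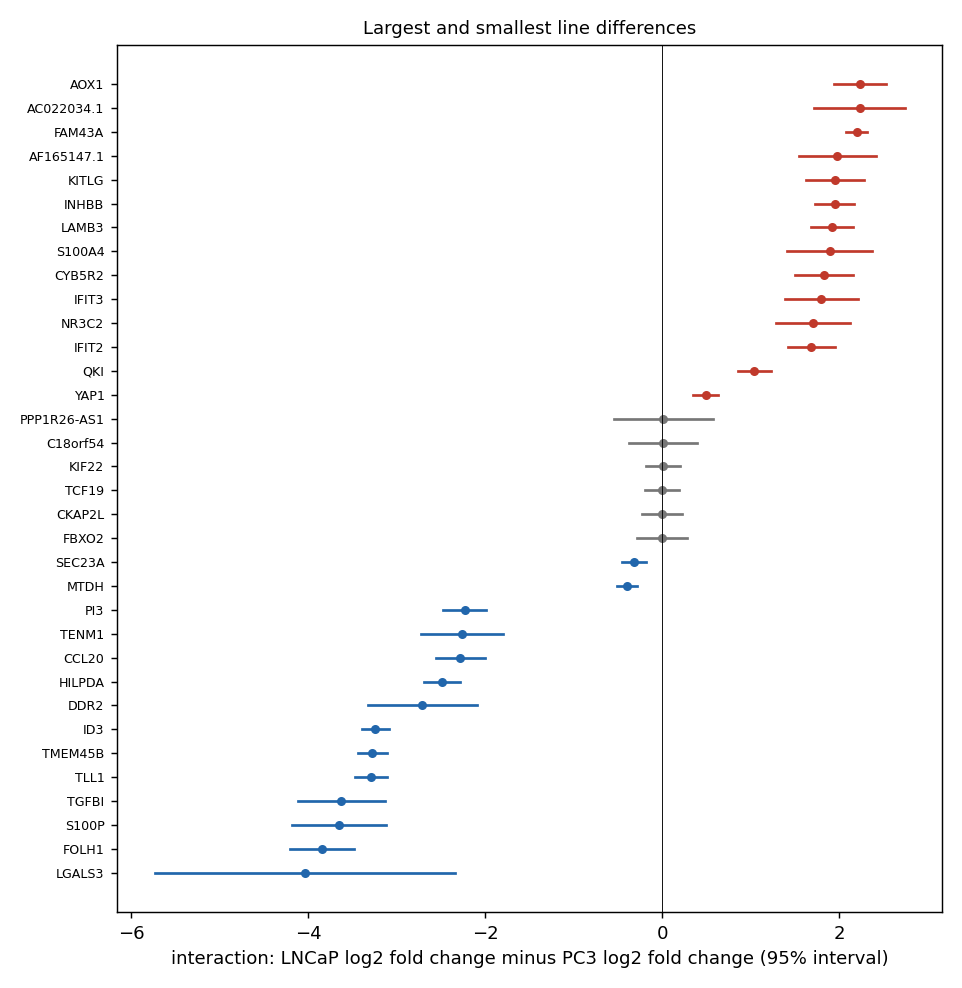
Interaction (LNCaP log2 fold change minus PC3 log2 fold change) with its 95% interval for the 12 highest (red), the 12 lowest (blue), the reported targets MTDH, YAP1, SEC23A and QKI in the colour of their direction, and the 6 genes with at least 2-fold change in both lines and the smallest interaction (grey). The interval of LGALS3 is the widest, and those of the 6 grey genes include 0.

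MYC, a transcription factor of growth and metabolism, was called down in LNCaP and up in PC3. It stood at 355 and 344 CPM in the LNCaP controls and 187 and 183 with miR-375, and at 86.5 and 94.8 CPM in the PC3 controls and 164 and 153 with miR-375. The groups did not overlap in either line, and the gap between the lines in the controls had nearly closed with miR-375. MYC fell by 0.92 and rose by 0.81, with an interaction of −1.72 ± 0.06 (adjusted p = 3.61e-22). S100P, a calcium-binding protein, went from 11.6 and 8.33 to 3.55 and 3.68 CPM in LNCaP and from 2.22 and 1.97 to 9.31 and 9.84 CPM in PC3, an interaction of −3.65 ± 0.26 (adjusted p = 1.20e-13). PI3, which encodes the elastase inhibitor elafin, fell from 6.04 and 5.95 to 2.60 and 2.16 CPM in LNCaP and rose from 402 and 415 to 764 and 763 CPM in PC3. Its interaction was −2.23 ± 0.12 (adjusted p = 3.85e-17). HES6, a relative of the Notch targets, and RCN3, a calcium-binding protein of the secretory pathway, had interactions of −1.51 ± 0.16 and −1.56 ± 0.09. HES6 reached the CPM limit in PC3 only with miR-375. Besides S100A4, the 11 other genes named for their opposite directions kept them in every refit.

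**Figure D4:**
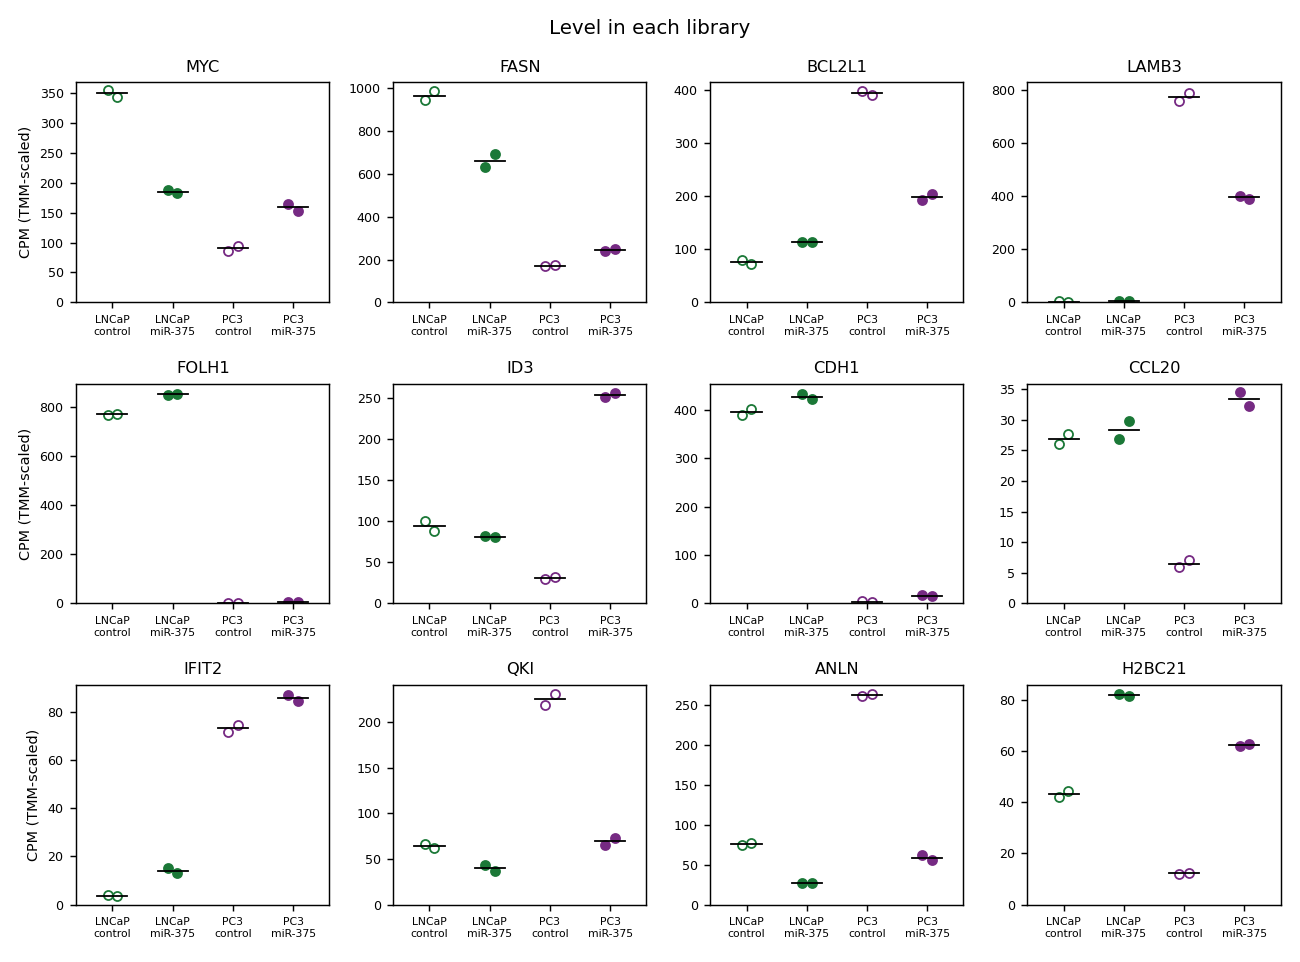
CPM (TMM-scaled, linear axes from 0) of 12 genes in each of the 8 libraries, open points for controls, filled points for miR-375, green for LNCaP, purple for PC3, with a line at the mean of the 2 libraries. MYC and FASN fell in LNCaP and rose in PC3, BCL2L1 and LAMB3 the reverse, and ID3 and CCL20 rose in PC3 to or above their LNCaP level.

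Genes of cell division fell in both lines, and among the mitotic genes with a line difference the fall was nearly always the larger in PC3. All 40 genes listed for DNA replication and S-phase entry fell in LNCaP and 39 in PC3, with medians of −1.36 and −1.28, and the interaction was lower for 15 and higher for 3. Without the filter on low counts the latter counts were 9 and 7, and without the first LNCaP control 9 and 6, a less uneven balance. Of the 38 listed genes of mitosis and G2/M, all fell in both lines, with medians of −1.01 and −1.25, and here the interaction was higher for 20 and lower only for MKI67. The median interaction was −0.16 for replication and 0.23 for mitosis, against −0.04 over the 9976 genes, and 45% and 55.3% of the lists were called, against 44.1%. Over the refits it stayed between −0.16 and −0.07 and between 0.22 and 0.33, and 13 mitotic genes were called higher and 6 replication genes lower in every refit.

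ANLN, a scaffold of the cytokinetic ring, fell from 74.9 and 77.0 to 26.7 and 27.2 CPM in LNCaP and from 262 and 264 to 62.2 and 55.8 CPM in PC3, with an interaction of 0.66 ± 0.07 (adjusted p = 6.00e-09). CDC25C, the phosphatase that activates CDK1, had an interaction of 0.72 ± 0.20, NUF2, a kinetochore subunit, one of 0.70 ± 0.14, and ECT2, a cytokinesis exchange factor, one of 0.48 ± 0.07. On the replication side, CCNE1, the cyclin of S-phase entry, fell from 41.0 and 37.0 to 23.8 and 22.7 CPM in LNCaP and was not called in PC3, at 4.94 and 6.43 and then 6.19 and 6.62 CPM. Its interaction was −0.92 ± 0.17 (adjusted p = 4.39e-05). MCM10, a replication initiation factor, fell from 49.3 and 49.0 to 11.9 and 11.8 CPM in LNCaP and from 8.43 and 8.46 to 4.19 and 2.75 CPM in PC3. Its interaction of −0.77 ± 0.18 (adjusted p = 0.00127) became −0.43 (adjusted p = 0.126) without the first PC3 miR-375 library. E2F2, an activator of S-phase genes, had −0.90 ± 0.21.

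Replication-dependent histone transcripts rose in both lines and further in PC3. Of 37 listed histone genes only 8 reached the CPM limit, and a gene could reach it through the libraries in which it was high, so their count is a description. H2BC21 went from 42.1 and 44.4 to 82.5 and 81.6 CPM in LNCaP and from 11.9 and 12.6 to 62.0 and 62.9 CPM in PC3, with an interaction of −1.43 ± 0.09 (adjusted p = 8.68e-15). H1-2, a linker histone, went from 42.3 and 38.8 to 65.1 and 60.1 CPM and from 44.5 and 45.9 to 163 and 162 CPM, with −1.22 ± 0.08 (adjusted p = 8.68e-15). H3C10 (−1.18 ± 0.22) and H2BC5 (−1.13 ± 0.18) moved in the same way. The interaction was lower for 7 of the 8 and the median was −0.97, staying between −0.99 and −0.78 over the refits. These genes share near-identical copies, and most such messages lack a poly(A) tail, so the levels in poly(A) libraries are uncertain.

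Several luminal and epithelial genes that PC3 expressed weakly rose there and moved little in LNCaP. A gene under 5 CPM in the PC3 controls, as FOLH1 and CDH1 were, could be described only if it was higher with miR-375. Of 20 listed genes of the androgen receptor and luminal programme, the interaction was lower for 13 and higher for 4 (85% called, against 44.1% of all genes described). The median of −0.31 stayed below 0 over the refits (−0.34 to −0.21). FOLH1, the prostate-specific membrane antigen gene, stood at 771 and 772 CPM in the LNCaP controls and 851 and 855 with miR-375, and at 0.249 and 0.467 and then 5.45 and 5.93 CPM in PC3. It reached the CPM limit in PC3 only with miR-375, and its interaction was −3.84 ± 0.18 (adjusted p = 8.11e-19). KLK3, also a gene of LNCaP, remained at 0 in the same PC3 libraries. FOXA1, the pioneer factor of luminal chromatin, stood at 610 and 599 and then 542 and 551 CPM in LNCaP and rose from 84.9 and 90.5 to 215 and 234 CPM in PC3, with −1.50 ± 0.06 (adjusted p = 1.47e-21). The transporter gene ABCC4 and the metalloreductase gene STEAP2 fell in LNCaP and rose in PC3, with interactions of −1.16 ± 0.06 and −0.85 ± 0.06. Among the higher genes, TMPRSS2 and the keratins KRT8 and KRT18 were named after their values were seen and had interactions of 0.35 to 0.53.

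CDH1, which encodes E-cadherin, stood at 391 and 402 and then 433 and 422 CPM in LNCaP. It rose from 4.19 and 3.50 to 17.7 and 15.2 CPM in PC3, which brought it over the CPM limit there. The PC3 libraries with miR-375 were thus far above their controls and still far below every LNCaP library, and the interaction was −1.98 ± 0.10 (adjusted p = 1.11e-17). EPCAM, an epithelial adhesion molecule, rose from 9.38 and 8.46 to 23.1 and 24.3 CPM in PC3 and was not called in LNCaP (−1.42 ± 0.09). OCLN, a tight junction protein, also rose in PC3 and was not called in LNCaP (−1.34 ± 0.13). CLDN4, another tight junction gene, went the other way, from 333 and 323 to 379 and 379 CPM in LNCaP and from 849 and 857 to 351 and 337 CPM in PC3, with an interaction of 1.52 ± 0.05 (adjusted p = 1.04e-23). In all, the interaction of the 28 listed epithelial genes was lower for 13 and higher for 4, with a median of −0.29. That is 60.7% called, against 44.1% of all genes described. Of 12 listed mesenchymal genes it was lower for 5 and higher for 4, and the reverse with total counts. VIM, which encodes vimentin, rose from 33.2 and 28.5 to 41.4 and 38.9 CPM in LNCaP and fell from 254 and 236 to 156 and 150 CPM in PC3 (1.06 ± 0.08), and COL1A1, a collagen chain, rose in PC3 from 136 and 142 to 384 and 362 CPM (−1.34 ± 0.09).

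Integrin and laminin genes were called in 19 of 20 cases (95%, against 44.1% of all genes described). The interaction was higher for 13 and lower for 6, with a median of 0.33 (0.31 to 0.42 over the refits). ITGA6, the laminin-binding integrin α6, fell from 46.4 and 45.1 to 30.5 and 30.2 CPM in LNCaP and from 637 and 627 to 219 and 226 CPM in PC3, with an interaction of 0.91 ± 0.06 (adjusted p = 1.71e-14). LAMA5, a laminin chain, fell in PC3 from 2020 and 1942 to 1002 and 1036 CPM and was not called in LNCaP (0.87 ± 0.07). ITGA3, the integrin α3 that binds laminin 332, fell in PC3 from 1927 and 1905 to 1263 and 1287 CPM and stood between 10.5 and 12.4 CPM in LNCaP (0.78 ± 0.07).

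Targets of YAP and its paralogue TAZ split. Of 15, the interaction was higher for 6 and lower for 5 (73.3% called, against 44.1% of all genes described). The median changes were 0.30 in LNCaP and −0.26 in PC3. CCN1, a matricellular protein, rose from 12.9 and 11.7 to 21.2 and 22.1 CPM in LNCaP and fell from 195 and 205 to 133 and 131 CPM in PC3, an interaction of 1.41 ± 0.09 (adjusted p = 1.44e-15). GADD45A, a stress-response gene, did the same (1.02 ± 0.08). THBS1, which encodes thrombospondin 1, rose in both lines but more in PC3, from 12.5 and 10.4 to 16.6 and 17.2 CPM in LNCaP and from 32.9 and 38.6 to 211 and 207 CPM in PC3 (−1.98 ± 0.11). WWTR1, which encodes TAZ itself, fell from 11.1 and 9.36 to 2.76 and 2.82 CPM in LNCaP and from 461 and 466 to 290 and 287 CPM in PC3 (−1.18 ± 0.11).

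Stress-response and secretory genes leaned to a rise in PC3. Among 24 listed genes of the integrated stress response and serine synthesis the interaction was lower for 12 and higher for 3. That is 62.5% called, against 44.1% of all genes described. The median changes were −0.11 in LNCaP and 0.31 in PC3. DDIT4, an inhibitor of mTORC1, rose from 30.5 and 29.7 to 95.9 and 100 CPM in PC3 and stood between 37.4 and 39.4 CPM in all LNCaP libraries, with an interaction of −1.75 ± 0.09 (adjusted p = 8.34e-18). STC2, a secreted glycoprotein, fell from 102 and 101 to 80.4 and 82.6 CPM in LNCaP and rose from 123 and 128 to 300 and 294 CPM in PC3 (−1.56 ± 0.06). SLC7A5, an importer of large neutral amino acids, rose from 175 and 176 to 416 and 403 CPM in PC3 (−1.55 ± 0.11), and the transcription factor gene ATF3 from 5.34 and 6.12 to 11.8 and 13.3 CPM (−1.16 ± 0.17).

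Of 24 chaperone and folding genes of the endoplasmic reticulum, the interaction was lower for 15 and higher for 3 (75% called, against 44.1% of all genes described). The median was −0.24 (−0.24 to −0.14 over the refits). ERO1A, the oxidase that drives disulfide formation, rose from 51.8 and 52.7 to 80.1 and 65.4 CPM in LNCaP and from 352 and 355 to 718 and 711 CPM in PC3 (−0.54 ± 0.08). PDIA3 (−0.55 ± 0.04) and P4HB (−0.53 ± 0.05), disulfide isomerases, rose in PC3 and were not called in LNCaP. ERO1B, the related oxidase, had an interaction of 0.57 ± 0.19 (adjusted p = 0.0240), which was lost with limma-voom (adjusted p = 0.0844) and without any of 3 libraries: the first LNCaP miR-375 (0.119), the second PC3 control (0.147) and the second PC3 miR-375 library (0.128).

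Lipid and sugar metabolism showed the same direction in its leading genes. FASN, fatty acid synthase, fell from 944 and 988 to 633 and 692 CPM in LNCaP and rose from 170 and 173 to 241 and 248 CPM in PC3, with an interaction of −1.05 ± 0.05 (adjusted p = 8.64e-18). FADS1, a fatty acid desaturase, also fell in LNCaP and rose in PC3 (−1.14 ± 0.06), while SCD (−0.86 ± 0.05) and FADS2 (−0.54 ± 0.05), desaturases too, rose in PC3 and were not called in LNCaP. Of 16 listed genes of fatty acid synthesis, 6 had a lower and 2 a higher interaction, with a median of −0.10. With DESeq2 size factors, or without the filter on low counts, 5 were lower and 6 higher, and without the filter the median was −0.01. Among 24 genes of cholesterol synthesis, 6 were higher and 6 lower. MVK, the mevalonate kinase, rose in LNCaP and fell in PC3 (0.81 ± 0.13), whereas TM7SF2, a late reductase of the pathway, rose in both lines and further in PC3 (−0.67 ± 0.07).

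Of 27 genes of hypoxia and glycolysis, 12 had a lower and 2 a higher interaction, and the median of −0.14 reached 0.04 under another setting. NDRG1, a stress-induced gene, rose from 1220 and 1261 to 2457 and 2458 CPM in PC3 and stood at 151 and 152 and then 182 and 157 CPM in LNCaP (−0.82 ± 0.06). HK2, a hexokinase, fell from 89.3 and 92.6 to 51.3 and 47.2 CPM in LNCaP and from 290 and 297 to 261 and 260 CPM in PC3 (−0.72 ± 0.06). SLC2A1, the glucose transporter GLUT1, fell from 118 and 117 to 97.5 and 87.8 CPM in LNCaP and rose from 152 and 167 to 202 and 201 CPM in PC3 (−0.68 ± 0.07). PFKFB3, which makes the activator of phosphofructokinase, had an interaction of −0.69 ± 0.08.

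Interferon-stimulated genes rose in both lines, and the lines differed in which rose more. Of 32, 21 rose and 1 fell in LNCaP, and 26 rose and 2 fell in PC3. The interaction was higher for 8 and lower for 12 (62.5% called, against 44.1% of all genes described), with a median of 0.02. The IFIT genes, whose proteins bind foreign RNA, were on the higher side. IFIT2 rose from 4.11 and 3.38 to 15.1 and 13.1 CPM in LNCaP and from 71.6 and 74.4 to 87.0 and 84.2 CPM in PC3, with an interaction of 1.68 ± 0.13 (adjusted p = 8.64e-13). IFIT3 rose from 1.63 and 1.09 to 5.93 and 4.54 CPM in LNCaP, which brought it over the CPM limit there, and was not called in PC3 (1.80 ± 0.20). OASL, a relative of the RNA-sensing oligoadenylate synthetases, rose from 3.20 and 2.98 to 14.7 and 13.9 CPM in LNCaP and from 22.9 and 25.8 to 49.8 and 51.9 CPM in PC3 (1.15 ± 0.16). IFIT2 and OASL, too, reached the CPM limit in LNCaP only with miR-375.

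IFIH1, which encodes the RNA sensor MDA5, was on the lower side: it stood between 5.76 and 6.47 CPM in all LNCaP libraries and rose from 27.2 and 34.9 to 66.6 and 58.8 CPM in PC3, with −1.09 ± 0.16 (adjusted p = 2.34e-06). HLA-B and B2M, genes of class I antigen presentation chosen after their values were seen, were on that side too. HLA-B rose from 127 and 130 to 276 and 285 CPM in PC3 and from 63.6 and 59.9 to 78.8 and 80.6 CPM in LNCaP (−0.76 ± 0.06), and B2M, the light chain of class I molecules, rose from 892 and 884 to 1717 and 1716 CPM in PC3 (−0.73 ± 0.05). Also chosen after their values were seen, ISG15, a ubiquitin-like modifier, rose from 311 and 310 to 651 and 666 CPM in PC3 and was not called in LNCaP (−0.96 ± 0.07), and IFI6, a mitochondrial protein, rose in both lines (−0.81 ± 0.08). Genes of the HLA family share near-identical sequence, so their single counts are uncertain.

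Promoters of IFIT3 and IFIH1 are shown in part because they stand for the 2 sides and share a motif. The motif searched was GAAANNGAAA, or TTTCNNTTTC on the other strand, part of the element that interferon-activated factors bind, in RefSeq promoters of GRCh38.p14 from 250 bases before to 50 after the start. IFIT3 had 2 matches and IFIH1 had 3, and only the one farthest upstream is marked for each. The stretches of 40 bases, with the motif in capitals, lie at chr10:89327826-89327865 (plus strand, motif from 156 bases before the start) and chr2:162318819-162318858 (minus strand, motif from 159 bases before the start).
IFIT3: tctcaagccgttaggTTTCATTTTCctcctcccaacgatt
IFIH1: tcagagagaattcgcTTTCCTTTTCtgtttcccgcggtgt

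Of the 32 interferon-stimulated genes 26 were matched to a promoter. The motif was present in 5 of 6 with a higher interaction, 7 of 10 with a lower one and 3 of 10 with no called interaction, against 3.65% of all 27305 promoters and 2.52% of the 8029 promoters of the genes described here. A match is a description and not a binding site.

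Among inflammatory and cytokine genes more were lower than higher. Of 21 genes of NF-kB and inflammation, 10 had a lower and 2 a higher interaction (57.1% called, against 44.1% of all genes described). The median was −0.29 (−0.36 to −0.14 over the refits). CCL20, a chemokine, stood between 26.0 and 29.8 CPM in all LNCaP libraries and rose from 5.96 and 7.06 to 34.5 and 32.3 CPM in PC3, an interaction of −2.28 ± 0.14 (adjusted p = 1.40e-15). LCN2, an iron-sequestering protein, fell from 23.0 and 25.8 to 20.2 and 17.5 CPM in LNCaP and rose from 16.9 and 12.2 to 41.8 and 43.9 CPM in PC3 (−1.92 ± 0.15). IL32, a cytokine, rose from 7.11 and 7.08 to 19.8 and 19.4 CPM in PC3 (−1.36 ± 0.17), and NFKBIB, an inhibitor of NF-kB, had −0.79 ± 0.14.

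Only 5 acute-phase and complement genes reached the CPM limit, 3 lower and 1 higher. The complement regulators CD55 and CD59 went opposite ways. CD55 fell from 12.6 and 9.76 to 4.80 and 4.57 CPM in LNCaP and rose from 527 and 528 to 676 and 682 CPM in PC3 (−1.61 ± 0.11), and CD59 rose from 49.2 and 51.5 to 66.9 and 72.6 CPM in LNCaP and fell from 442 and 439 to 238 and 223 CPM in PC3 (1.40 ± 0.06). C1R, a complement protease, rose in both lines, more in PC3 (−0.99 ± 0.11).

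Of 19 genes of JAK-STAT3 signalling, 10 had a higher and 7 a lower interaction (89.5% called, against 44.1% of all genes described). The median was 0.28 (0.20 to 0.47 over the refits). BCL2L1, which encodes the survival protein BCL-XL, rose from 79.7 and 73.0 to 114 and 114 CPM in LNCaP and fell from 399 and 391 to 192 and 204 CPM in PC3, with an interaction of 1.58 ± 0.06 (adjusted p = 3.07e-21). SOCS2, a feedback inhibitor of cytokine receptors, fell in PC3 from 52.7 and 57.8 to 25.7 and 24.9 CPM and was not called in LNCaP (1.32 ± 0.15). PIM1, a kinase gene induced by STATs, rose in PC3 from 49.0 and 52.2 to 140 and 148 CPM and was not called in LNCaP (−1.68 ± 0.12).

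Targets of p53, a tumour suppressor that PC3 is known to lack, divided as well. Of 22, the interaction was higher for 10 and lower for 4 (63.6% called, against 44.1% of all genes described). The median was 0.21 (0.21 to 0.31 over the refits). AEN, an apoptosis-related nuclease, fell in PC3 from 87.0 and 85.8 to 42.4 and 40.2 CPM and stood between 97.8 and 108 CPM in LNCaP (1.15 ± 0.07), and DDB2, a DNA damage sensor, fell in PC3 and was not called in LNCaP (0.98 ± 0.13). GDF15, a secreted stress cytokine, rose in PC3 from 34.2 and 37.1 to 127 and 122 CPM and was not called in LNCaP, at 842 and 769 and then 907 and 817 CPM (−1.71 ± 0.07). TP53INP1, a stress-induced gene, fell in LNCaP and rose in PC3 (−0.79 ± 0.07).

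Over all these lists the share called ran from 37.5% for the respiratory chain to 95% for integrins and laminins. In most lists it lay above the 44.1% of all genes described, of which 18.4% were higher and 25.7% lower. It was 50% for fatty acid and for cholesterol synthesis, 51.9% for hypoxia and glycolysis and 56.2% for reported targets. Mesenchymal genes had 75%, growth factor feedback and immediate early genes 76.9% each, acute-phase genes 80% and histones 87.5%. Growth factor feedback genes and immediate early genes, 13 of each, both had 5 higher and 5 lower interactions. DUSP5, a phosphatase of ERK, rose from 5.89 and 5.15 to 8.53 and 5.98 CPM in LNCaP and fell from 563 and 582 to 285 and 289 CPM in PC3 (1.39 ± 0.13). The receptor gene EPHA2 fell in PC3 from 995 and 1002 to 533 and 537 CPM (0.98 ± 0.07), and 2 more phosphatase genes, DUSP16 (−1.12 ± 0.07) and DUSP4 (−0.55 ± 0.05), were on the lower side. IER5 (0.81 ± 0.12) and KLF6 (0.75 ± 0.12), both induced early by growth factors, fell in PC3 and were not called in LNCaP.

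**Figure D5:**
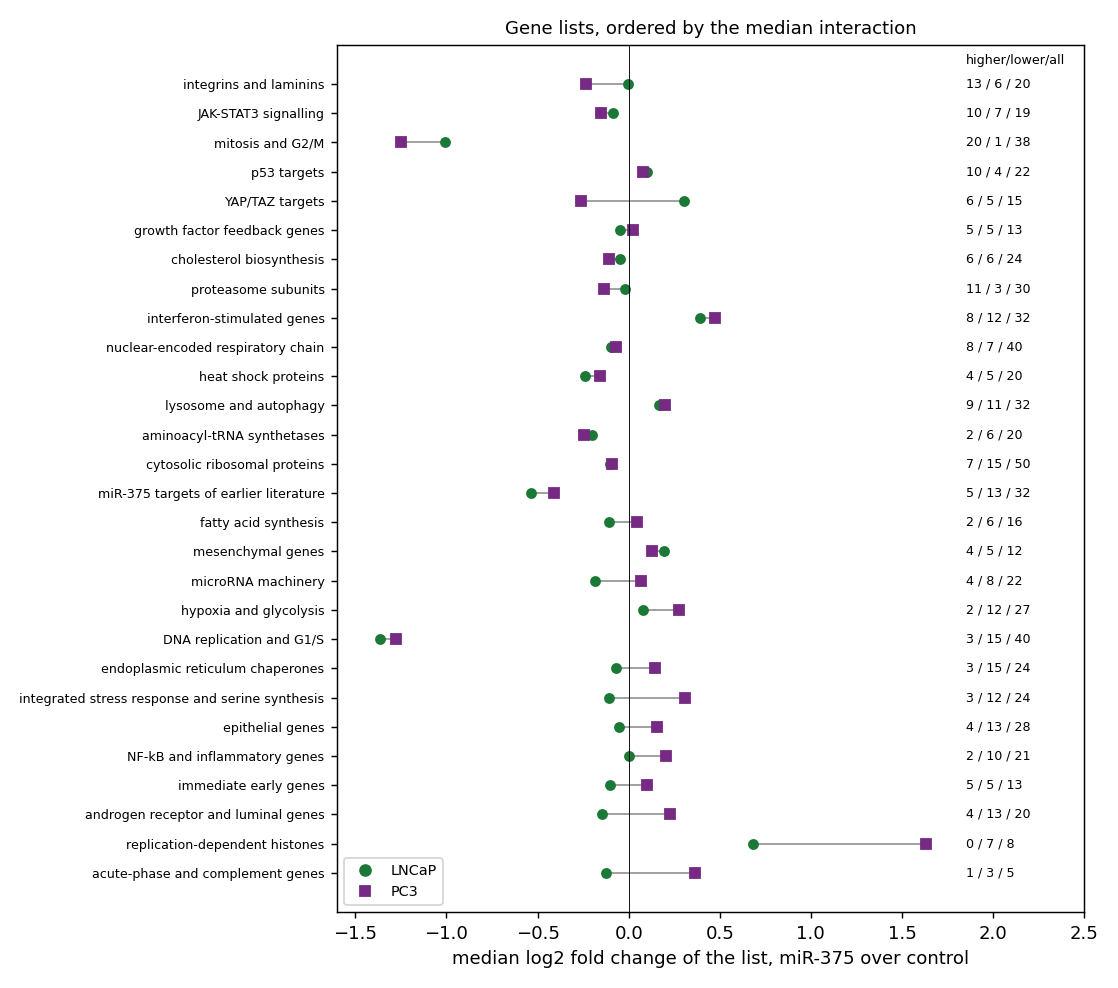
Median log2 fold change of miR-375 over control in LNCaP (green circles) and PC3 (purple squares) for each gene list, ordered by the median interaction, with the counts of higher and lower interactions and of members at the right. Both lines lie far below 0 for replication and mitosis and above 0 for histones and interferon-stimulated genes, and the lines fall on different sides of 0 for androgen receptor and luminal genes.

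Some large changes were alike in the lines. Of 186 genes that changed at least 2-fold in the same direction in both, 134 had no called interaction. The 6 with the smallest interaction were chosen for it, and their 95% intervals describe those genes alone. TCF19, a gene of the G1/S transition, went from 43.3 and 38.2 to 18.6 and 18.6 CPM in LNCaP and from 76.1 and 72.0 to 34.3 and 33.4 CPM in PC3, and the 95% interval of its interaction ran from −0.20 to 0.19. CKAP2L, a spindle protein (−0.23 to 0.22), and KIF22, a chromosome-arm kinesin (−0.19 to 0.20), fell as evenly, and FBXO2, a ubiquitin ligase subunit for glycoproteins, rose in both (−0.29 to 0.28). The intervals were wider for C18orf54 (−0.38 to 0.40) and PPP1R26-AS1 (−0.55 to 0.57), the latter at under 8 CPM in every library and an antisense gene whose counts are uncertain.

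At the CPM limit, AP001505.1 and LINC01411 were just inside, SSR4P1 and RELT just outside. RELT, a TNF receptor family member, stood at 5.23 and 4.75 CPM in the LNCaP controls and 14.7 and 16.6 CPM in the PC3 controls.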

How the data were processed

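Gene expression was measured in 8 libraries (2 for each of 4 groups), grouped by the labels. The counts per gene are the authors' deposited whole numbers, with no scaling. The submitters' processing notes name fastp, STAR 2.7.1a, featureCounts, DESeq2 and hg38. What each tool did, which annotation was used and whether strand was counted are not stated there, so overlapping, antisense and near-identical genes are uncertain. From 68.1% to 70.3% of low counts per library were even, and whether mates were counted singly is unknown; a fit on halved counts, rounded up, was one of the alternatives. Of 60625 lines, 3 were broken and left out (ANK2 was not analysed here), and 23834 of the 60622 used were 0 everywhere. No column belonged to another series.

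Genes passing filterByExpr were fitted together, all 4 groups in one design (4 residual degrees of freedom) with edgeR 4.0.16 in R 4.3.3: TMM, robust glmQLFit and glmQLFTest, with the interaction as the contrast. An SE is the log2 fold change divided by the square root of F. TMM factors ran from 0.957 to 1.06, and replicates correlated with r of 0.997 across genes on the log2 scale and differed by more than sampling noise (chi-square between 3.57 and 3.79 per degree of freedom), so none was taken as a duplicate. Counts were simulated for 20219 genes, and for each fold a change was placed in 100 of the genes described here. The interaction test recovered 87% of those changed 1.5-fold and 100% of those changed 2-fold, and called 12 unchanged genes. Recovery in genes below the CPM limit was not tested, and the simulated counts did not hold the excess of even low counts. Apart from the placed changes, each simulated gene changed alike in both lines, whereas 26.5% of tested genes were called in the data. The simulation therefore cannot show how many calls depend on the scaling between groups. Alternatives used limma 3.58.1 and DESeq2 1.42.0.

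The members and the gene lists were chosen with earlier results of these data known. The lists, written from general knowledge, cover miR-375 targets, androgen receptor and luminal genes, replication, mitosis, histones, p53, stress responses, folding, metabolism, interferon, inflammation, acute-phase genes, JAK-STAT3, YAP/TAZ, growth factor feedback, immediate early genes, cell contacts and housekeeping complexes, with markers of each line, fibroblasts, endothelium and leukocytes. The genes named are the 12 highest and 12 lowest called interactions, the 6 strongest per orientation among opposite calls, up to 4 called genes per list by size, 4 reported targets, the 6 smallest interactions among genes changed at least 2-fold in both lines, and the 2 on each side of the CPM limit. Exceptions are marked as chosen after their values were seen. Some genes that this rule names are not reported here.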

Additional observations from a re-analysis of the deposited data

Results flagged for a closer look

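The lines differed under the same contrast, by the test of the difference itself, for 1835 genes with a LNCaP change above the PC3 change and 2566 with one below it, and 716 genes were called in opposite directions. Among these, the interaction was 2.23 for AOX1, 1.92 for LAMB3, 1.95 for KITLG, 1.70 for NR3C2, 1.89 for S100A4 and 1.95 for INHBB, which rose in LNCaP and fell in PC3. It was −3.65 for S100P, −2.23 for PI3, −1.72 for MYC, −3.28 for TMEM45B, −1.51 for HES6 and −1.56 for RCN3, which fell in LNCaP and rose in PC3. AOX1, LAMB3, KITLG, NR3C2, S100A4 and INHBB reached the CPM limit in LNCaP only with miR-375, and S100P and HES6 did so in PC3. A higher level there was a condition of their entry, so their direction in that line is a description. Of the 716 opposite calls, 293 held in every refit, and S100A4 was not among them. No group had enough libraries to look for a library far from the others.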

How the results depend on the processing

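Leaving out 1 library at a time gave 1613 to 2243 higher interactions, 1701 to 2277 lower ones and 563 to 637 opposite calls; the lowest count of lower interactions, 1701 against 2566, came without the second LNCaP control, and the cause was not tested. The other alternatives kept each count within 1.5 times: 2189 higher and 2152 lower with total counts, 2224 and 2079 with DESeq2 size factors, 1994 and 1892 with the DESeq2 Wald test, 1736 and 2413 with limma-voom, 2561 and 1739 without a filter, and 2570 and 2032 with halved counts. A replicate block gave 1778 and 2485, with 684 opposite calls; same-numbered libraries did not deviate together (r from −0.06 to 0.01), so the numbers were not taken to pair them. A CPM limit of 1 gave 2057 and 2926 among 12522 genes, one of 20 gave 1365 and 1953 among 6792, and a limit on the controls alone 1776 and 2458 among 9630. Of 142 named interactions, 136 kept their call in all 15 refits and none reversed; among the others were ERO1B, LGALS3, SEC23A and MCM10, given above, and ATP5PO, lost with limma-voom (adjusted p = 0.0511), with the replicate block (0.0601) and without any of 4 libraries. Of 56 counts of higher or lower members per list, 35 stayed within 1.5 times throughout. The 2 libraries per group and 4 residual degrees of freedom limit the precision of every value.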

Other observations

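Genes of the proteasome, the respiratory chain, the ribosome and tRNA charging were called in shares of 46.7%, 37.5%, 44% and 40%, near the background of 44.1%. Of 30 proteasome subunits, the interaction was higher for 11 and lower for 3, with a median of 0.07. The ATPase subunits of the regulatory particle did not move together: PSMC5 fell from 189 and 201 to 137 and 136 CPM in PC3 (0.51 ± 0.06), and PSMC2 (0.50 ± 0.06) and PSMC1 (0.35 ± 0.07) fell there too, while PSMC4 rose from 167 and 175 to 218 and 211 CPM (−0.30 ± 0.06), and none of the 4 was called in LNCaP. Of 40 nuclear-encoded subunits of the respiratory chain 8 were higher and 7 lower (median 0.02), and 5 and 7 without the second PC3 miR-375 library. SDHA, the catalytic subunit of complex II, fell in PC3 from 18.4 and 17.7 to 9.66 and 9.34 CPM and stood between 10.8 and 11.7 CPM in LNCaP (0.90 ± 0.17), and NDUFB3 (0.47 ± 0.09), ATP5PO (0.41 ± 0.15) and NDUFB10 (−0.38 ± 0.06) followed in size. SDHA has near-identical copies, so its count is uncertain. Of 50 cytosolic ribosomal proteins 7 were higher and 15 lower, with a median of −0.07, whereas without the first LNCaP control 17 were higher and 7 lower, with a median of 0.06, and without the filter on low counts 15 and 7. RPL12 fell from 1686 and 1555 to 1463 and 1428 CPM in LNCaP and rose from 344 and 336 to 438 and 446 CPM in PC3 (−0.54 ± 0.05), RPL28 did likewise (−0.37 ± 0.05), RPL11 rose in PC3 (−0.49 ± 0.05) and RPLP1 fell there (0.48 ± 0.05). Of 20 aminoacyl-tRNA synthetases 2 were higher and 6 lower (median −0.04), whereas without the second LNCaP control, the second LNCaP miR-375 library or the filter 6 were higher and 3 lower. The largest were FARSA (−0.39 ± 0.06), AARS1 (0.32 ± 0.05), LARS1 (−0.27 ± 0.05) and KARS1 (−0.26 ± 0.05).

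Of 22 genes of the microRNA machinery 4 were higher and 8 lower (54.5% called, against 44.1% of all genes described). The median of −0.13 was −0.01 without the second LNCaP control, and with total counts 6 were higher and 8 lower. AGO4, an Argonaute gene, fell from 41.9 and 38.0 to 32.3 and 31.3 CPM in LNCaP and rose from 33.4 and 33.6 to 50.5 and 52.7 CPM in PC3 (−0.95 ± 0.10, adjusted p = 1.14e-09). DCP2, a decapping enzyme (−0.58 ± 0.09), and CNOT1, the scaffold of the deadenylase complex (−0.50 ± 0.06), were on the same side, and TARBP2, a partner of Dicer (0.51 ± 0.10), on the other. Of 20 heat shock genes 4 were higher and 5 lower (45% called, near the 44.1%), and 6 and 2 without the filter on low counts. BAG3, a co-chaperone, fell in PC3 from 403 and 404 to 173 and 177 CPM and in LNCaP from 102 and 106 to 98.4 and 92.1 CPM (1.08 ± 0.06), and HSPD1, the mitochondrial chaperonin, fell in LNCaP from 1937 and 1987 to 1532 and 1530 CPM and rose in PC3 from 507 and 525 to 655 and 641 CPM (−0.69 ± 0.04). CHORDC1 (−0.46 ± 0.07) and DNAJB6 (0.37 ± 0.06) were the other named members. Of 32 lysosome and autophagy genes 9 were higher and 11 lower (62.5% called, against 44.1%), and 11 and 9 without the filter on low counts. CTSB, a cathepsin, rose in LNCaP from 183 and 186 to 296 and 291 CPM and was not called in PC3 (0.74 ± 0.05), ATG16L1, which directs lipidation in autophagosome formation, fell in PC3 from 131 and 131 to 65.7 and 65.0 CPM (0.97 ± 0.08), the proton pump gene ATP6V1H rose in LNCaP and fell in PC3 (0.79 ± 0.09), and WIPI1, an autophagosome protein, did the reverse (−1.06 ± 0.15). Among line markers that reached the limit, 4 of 10 for LNCaP had a higher and 4 a lower interaction, as did 3 and 1 of 4 for PC3. Fibroblast markers had 2 members with 1 lower, endothelial markers 1 member, also lower, and leukocyte markers none.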
